A study of Mus musculus with 24 samples.

Results

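The Slc25 family of mitochondrial carriers was followed in mouse small-intestinal organoids in which the Mediator kinases CDK8 and CDK19 had been targeted genetically or inhibited. Members were taken by name alone, as every gene whose symbol is Slc25a followed by a number, with the pseudogene Slc25a5-ps left out. This gave 47 genes of the 54146 in the count tables. The 40 members with a mean of at least 10 raw counts over the libraries of an experiment reached that mean in both experiments, and all 40 passed the filter for testing. The other 7 members, Slc25a2, Slc25a18, Slc25a21, Slc25a31, Slc25a41, Slc25a43 and Slc25a54, had at most 5 counts in any library and were not tested.

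Slc25 proteins are nuclear-encoded, are built from repeated pairs of membrane-spanning helices, and mostly sit in the inner mitochondrial membrane, where they exchange metabolites between the cytosol and the matrix. They move nucleotides, phosphate, carboxylic and amino acids, cofactors and metal ions, so that ATP export, the malate-aspartate shuttle, the urea cycle and haem synthesis each depend on named carriers. In the intestine the absorptive enterocytes, which carry most of the transport work of the epithelium, are rich in mitochondria. CDK8 and CDK19 are paralogous kinases that bind the Mediator complex and act on transcription.

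The genotype experiment held WT, Cdk8-/-, Cdk19-/- and double knockout organoids, with 3 libraries per genotype, all kept for 7 days in 600 nM 4-hydroxytamoxifen, the WT included. Organoids came from Cdk8 lox/lox mice with or without Villin-CreERT2, in which the Villin promoter drives a tamoxifen-activated Cre in intestinal epithelium. Cdk19 was targeted with a lentiviral CRISPR guide, puromycin selection and growth from picked organoids, so that each picked line is 1 clone. The paper describes several double knockout clones, and the library titles do not name the clone. The Senexin B experiment held organoids that the paper describes as WT, with 3 libraries per group. They were given the vehicle DMSO or the CDK8/19 inhibitor Senexin B at 10 µM for 16 h or 24 h. Genotype libraries were made from poly(A) RNA, and Senexin B libraries are described as rRNA-depleted total RNA. Levels were therefore not tested between the experiments, and each has its own scale. The age of the donor animals is not stated in the sources used here. The submitters state that conditions were prepared as biological triplicates, and p-values measure the spread between these libraries.

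Gene counts ranged from 14636861 to 15473180 per genotype library and from 27075937 to 28405118 per Senexin B library. Cdk8 transcripts did not fall in libraries labelled Cdk8-/- (725 ± 117 normalised counts, SD, n = 3) against WT (605 ± 61.4), so gene-level counts do not check that deletion. Cdk19 had 729 normalised counts in the library labelled Cdk19-/- replicate 1 and 773 in the library labelled double knockout replicate 3, at the WT level of 711 to 749, whereas the other libraries labelled as lacking Cdk19 had 355 to 422. Counts of called members in the comparisons that use these 2 libraries are given with and without them, as are the calls that changed. Most single values are given with them only. Esr1, part of which makes up CreERT2, averaged 299.6 normalised counts in Cdk8-/- and 336 in double knockout libraries against 3.79 in WT and 3.30 in Cdk19-/-, so loss of Cdk8 and the line that carries CreERT2 cannot be told apart. The genotype labels also name 4T1, a mammary carcinoma line, as the cell type. All 6 markers of intestinal epithelium were detected in every library, whereas of 4 mammary secretory genes Csn2 and Lalba were at 0 in all 12 genotype libraries and Wap was at 0 in all but 1 Cdk19-/- library (1.94 normalised counts). The milk protein gene Csn3 was detected in every Cdk8-/- and double knockout library, so that the sum over this list was 3.06 to 22.1 and 2.04 to 16.5 there, against 0 to 2.01 in WT and 0 to 1.94 in Cdk19-/- libraries.

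Normalised counts below are column 4 counts scaled to the mean effective library of their own experiment. Divided by summed exon length in kilobases, 5 members stood highest in both experiments, namely the citrate carrier Slc25a1, the ADP/ATP carrier Slc25a5, the glutathione carrier Slc25a39, the phosphate carrier Slc25a3 and the oxoglutarate carrier Slc25a11. In the genotype experiment Slc25a1 led with 2271 normalised counts per kilobase, ahead of Slc25a5 (1948), Slc25a39 (1777), Slc25a3 (1595) and Slc25a11 (985). In the Senexin B experiment Slc25a5 led with 12799.6, ahead of Slc25a1 (3949), Slc25a3 (3405), Slc25a39 (2438) and Slc25a11 (1523). These 5 genes made up 59.8% of the summed per-kilobase level of the family in the genotype libraries and 71.5% in the Senexin B libraries. The lowest reported members were Slc25a29, a carrier of basic amino acids, at 7.88 per kilobase in the genotype experiment, and Slc25a53 at 9.95 in the Senexin B experiment, against medians over the reported members of 119 and 171. As a share of all gene counts the family took 0.335% ± 0.00541 (SD, n = 3) in WT libraries, and 0.341% ± 0.0201 where both kinases were targeted. With Senexin B it took 0.358% to 0.375% at 16 h against 0.379% to 0.398% in DMSO. At 24 h it took 0.335% to 0.345% against 0.358% to 0.365%. In this share of raw counts the inhibitor libraries lay below their DMSO libraries at both times. Unlike the other values, the share lacks the scaling between libraries. Levels of neighbours in this order were not tested against each other.

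**Figure D1:**
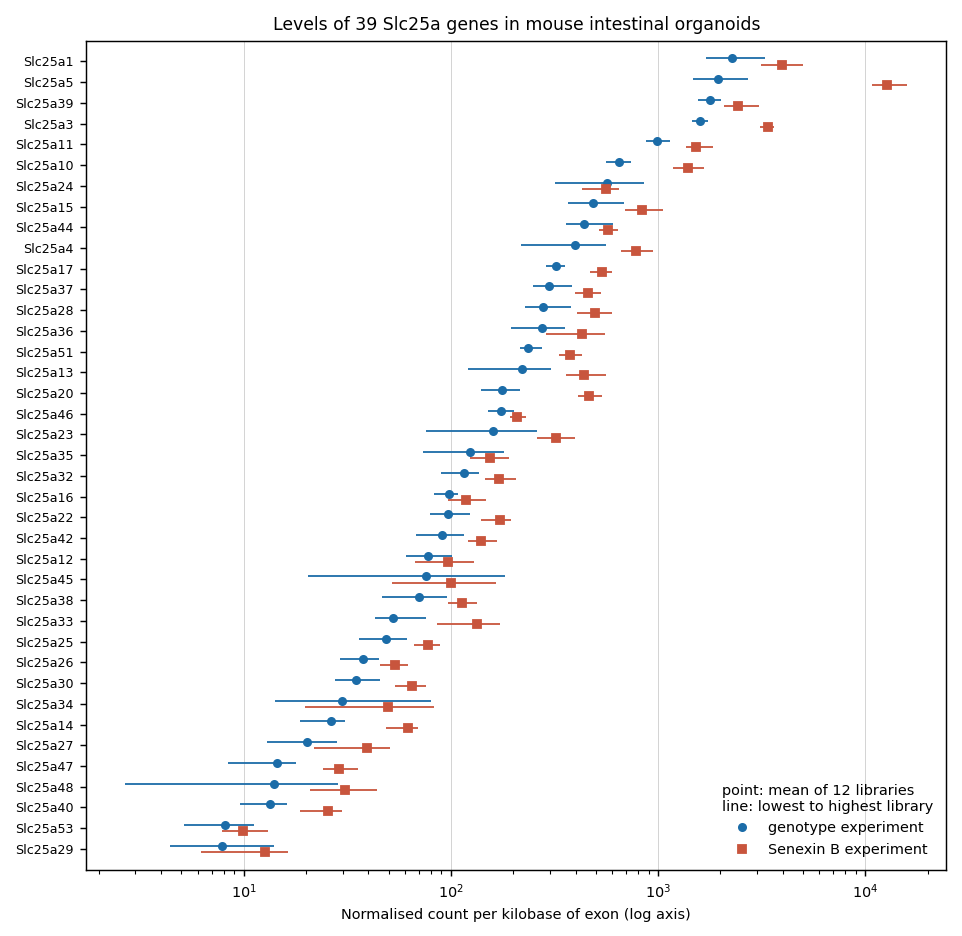
Normalised counts per kilobase of summed exon length on a log axis for 39 of the reported Slc25a genes, with the mean over the 12 libraries of each experiment on that experiment's own scale. Slc25a1, Slc25a5, Slc25a39, Slc25a3 and Slc25a11 stand highest in both experiments, and Slc25a29 (7.88, genotype) and Slc25a53 (9.95, Senexin B) lowest.

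The members lie on 19 chromosomes, with 5 on chromosome 11. Slc25a29 and Slc25a47 lie head to head on chromosome 12, with 162 bases between their annotated ends. Slc25a23 and Slc25a24 lie 2056 and 6461 bases from Slc25a41 and Slc25a54 respectively, and Slc25a5 lies 18448 bases from Slc25a43. Those 3 partners were among the 7 members under the count limit. Summed exon lengths ran from 1646 bases (Slc25a5) to 9594 (Slc25a36). Exons of 10 reported members overlap an exon on the opposite strand, and in the genotype libraries, in which 49.6% to 49.7% of the strand-assignable reads fell in column 4, reads of such partners cannot be told apart. Slc25a35 (1151 bases shared with Rangrf), Slc25a25 (379 bases with Naif1) and Slc25a23 (168 bases with Gm17168) had genotype calls under the rule given next. Slc25a11 (189 bases with Rnf167) and Slc25a37 (473 bases with Gm27223 and Gm31748) had genotype calls in other settings only.

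A member is called here where edgeR's quasi-likelihood test, fitted over all genes of the experiment with Benjamini-Hochberg adjustment, gave an adjusted p under 0.05 with all libraries and without a replicate block, unless another setting is named. Against WT, 12 of 40 members were called in double knockout libraries (8 higher and 4 lower), where 17.3% of all 15602 tested genes were called, 9.41% higher and 7.9% lower. Against the same WT libraries, 7 members were called in Cdk8-/- (3 higher and 4 lower), beside 5.15% of all genes (2.79% higher and 2.36% lower). In Cdk19-/- against WT edgeR called 0 members and 0.0% of all genes, while 5 members and 10.8% of all genes had an unadjusted p under 0.05, and DESeq2 also called 0 members, beside 2.01% of all genes. Senexin B gave 5 called members at 16 h (1 higher and 4 lower), beside 7.75% of 15467 genes (4.36% higher and 3.39% lower). At 24 h it gave 8 (4 higher and 4 lower), beside 27.5% of genes (14.8% higher and 12.7% lower). Called members were therefore 30.0% of those tested in double knockout and 17.5% in Cdk8-/- libraries, above the share over all genes, while the 20.0% at 24 h of Senexin B lay below it in this fit without a replicate block. The replicate number was also fitted as a block, since same-numbered libraries deviated together within each Senexin B time, in part weakly. With it 35% of members stood beside 36.9% of all genes at 24 h and 32.5% beside 14.8% at 16 h. The median log2 fold change of the 40 members stayed near that of all genes, at 0.07 against -0.01 in double knockout libraries and -0.03 against 0.00 at 24 h of Senexin B. The changes ran in both directions within the family. Of the 40 members 24 were called in at least 1 of the 10 comparisons. The matching share over all genes was not computed, so this count is not a result about the family.

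**Figure D2:**
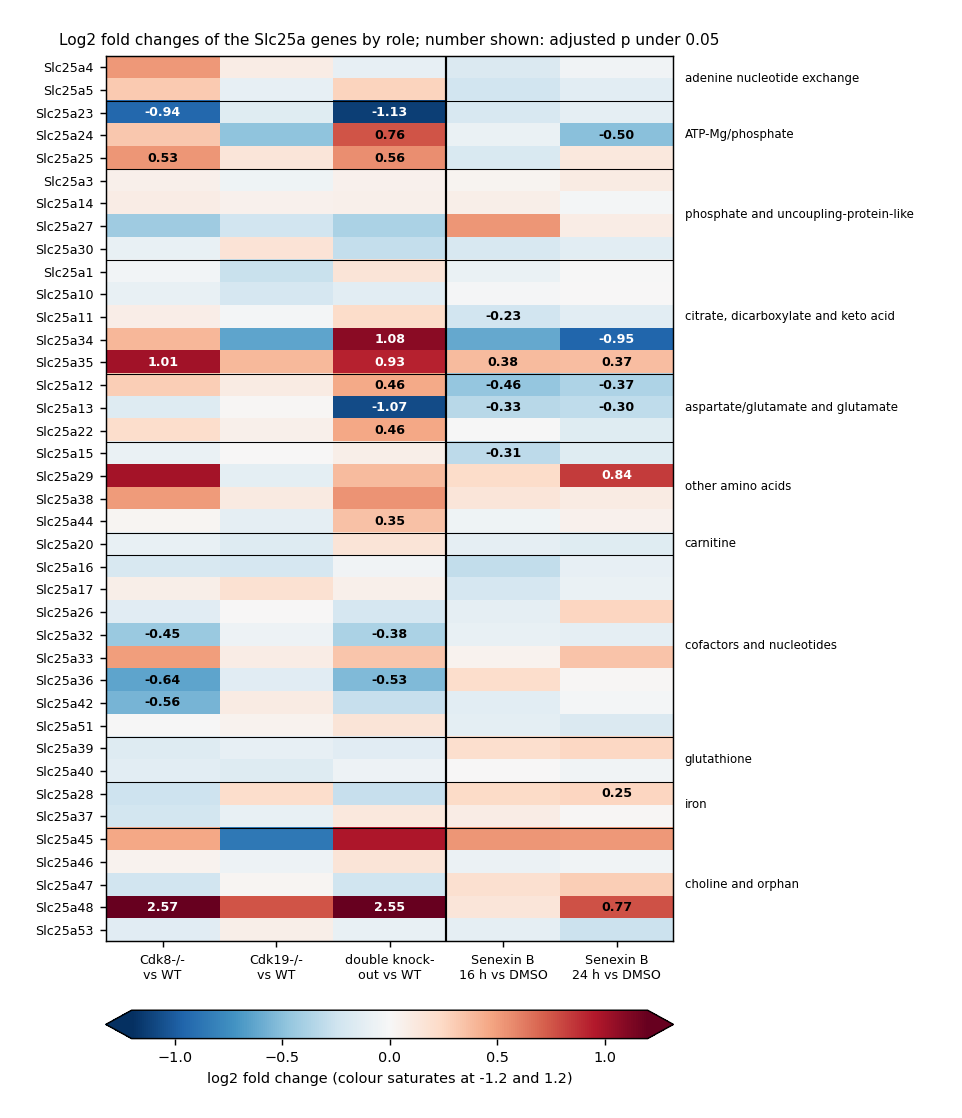
Heat map of log2 fold changes for 39 of the reported Slc25a genes (rows, by role) in the comparisons of the study (columns), with colour saturating at ±1.2 and the value printed where edgeR's adjusted p was under 0.05. The largest printed values are those of Slc25a48 in Cdk8-/- (2.57) and double knockout (2.55) libraries against WT, and rises and falls stand side by side within several role groups.

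In whole organoids, fewer cells of a type and less RNA per cell cannot be told apart, and markers of intestinal cell types moved with the groups. All 5 Paneth cell markers were called higher in Cdk8-/- and in double knockout libraries, with summed levels of 55897 to 74501 and 36204 to 73344 respectively, against 18372 to 24212 in WT and 19455 to 23483 in Cdk19-/-. Of 8 enterocyte markers 5 were called higher in double knockout libraries, whose sums were 185481 to 254100 against 104529 to 112632 in WT, and 4 of 5 stem cell markers were called lower. In Cdk8-/- libraries 2 of 8 enterocyte markers (sums of 142013 to 155375) and 2 of 7 goblet cell markers (53539 to 61747 against 34647 to 48529 in WT) were called higher, and 1 stem cell marker, Lgr5, was called lower. In double knockout libraries 2 goblet cell markers were called higher, while 2 of 4 tuft cell markers (sums of 212 to 537 against 616 to 954 in WT) and 2 of 5 proliferation markers (10792 to 12335 against 15916 to 17037) were called lower. No marker of these lists was called in Cdk19-/- against WT, although enterocyte sums of 71828 to 98076 lay below and stem cell sums of 49437 to 77987 lay above the WT ranges (37174 to 42335 for the stem cell list). At 24 h of Senexin B 4 of 5 Paneth markers were called lower, with sums of 34090 to 46648 against 75080 to 80842 in DMSO, and at 16 h 2 were called lower (40429 to 51938 against 53334 to 76701). Goblet cell sums at 24 h were 82585 to 92972 against 95905 to 109225 in DMSO, although 4 of the 7 markers were called higher and 1 lower. Of the enterocyte markers 2 were called higher and 1 lower at 16 h, and 4 higher and 1 lower at 24 h, of 5 enteroendocrine markers 3 were called higher at both times, and of 4 tuft cell markers 2 were called higher at 24 h (sums of 684 to 813 against 547 to 623). The part of these cell-type shifts in the carrier differences below was not tested.

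The calcium-regulated aspartate/glutamate carriers Slc25a12 (aralar, chr2) and Slc25a13 (citrin, chr6) showed opposite differences in double knockout libraries. Both export aspartate from the matrix in exchange for glutamate and serve the malate-aspartate shuttle. Normalised counts of Slc25a13 were 982, 1023 and 953 in WT and 485, 463 and 461 in the double knockout libraries. All double knockout libraries lay below all others of that experiment, and Slc25a13 fell by 1.07 on the log2 scale against WT (SE 0.121, edgeR adjusted p = 0.000336). Levels were 915, 885 and 854 in Cdk8-/- and 779.6, 1053 and 1152 in Cdk19-/- libraries, neither called against WT. Slc25a13 was also the only member called between double knockout and Cdk8-/- libraries (-0.91, SE 0.121, edgeR adjusted p = 0.0232), where 0.0256% of all genes were called. That count was 0 without Cdk8-/- replicate 1 or 2 or any 1 of the double knockout libraries, where 0.0188% to 0.0441% of all genes were called and the value of Slc25a13 stayed between -0.93 and -0.89, and 2 without Cdk8-/- replicate 3, where 5.28% of all genes were called.

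Normalised counts of Slc25a12 were 501, 467 and 493 in WT, 539, 624 and 629 in Cdk8-/-, and 744, 654 and 606 in double knockout libraries. It rose by 0.46 on the log2 scale in double knockout libraries (SE 0.130, edgeR adjusted p = 0.0320), with no overlap with WT. The ratio of the per-kilobase level of Slc25a12 to that of Slc25a13 was 0.735 ± 0.0570 (SD, n = 3) in double knockout libraries, against 0.256 ± 0.0170 in WT, 0.287 ± 0.118 in Cdk19-/- and 0.350 ± 0.0402 in Cdk8-/-. Under Senexin B both genes were lower instead. Slc25a13 fell from 1908, 1984 and 2133 in DMSO to 1641, 1563 and 1582 at 16 h (log2 change -0.33, SE 0.061, edgeR adjusted p = 0.00429). At 24 h it fell from 1685, 1661 and 1772 to 1367, 1389 and 1394 (-0.30, SE 0.062, edgeR adjusted p = 0.00284). Slc25a12 fell from 784, 835 and 946 to 557, 659 and 646 at 16 h (-0.46, SE 0.118, edgeR adjusted p = 0.0272) and from 697, 827 and 793 to 490.5, 676 and 629 at 24 h (-0.37, SE 0.118, edgeR adjusted p = 0.0330). Treated and DMSO libraries did not overlap for either gene at either time, and the ratio of the pair stayed between 0.202 and 0.234 in all 4 groups of that experiment. The glutamate carrier Slc25a22 rose in double knockout libraries, from 557, 485 and 476 to 744, 663 and 685 (0.46, SE 0.109, edgeR adjusted p = 0.0135), and was not called under Senexin B. Its paralog Slc25a18 had at most 4 counts in any library.

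The 250 bases before the RefSeq start of this opposed pair are shown to set their promoters side by side (GRCm38.p6, minus strand, chr2:71367756-71368005 for Slc25a12 and chr6:6217174-6217423 for Slc25a13). Capitals mark the E-box CACGTG at base 126 and CCAAT at base 229 of the Slc25a13 stretch.
Slc25a12: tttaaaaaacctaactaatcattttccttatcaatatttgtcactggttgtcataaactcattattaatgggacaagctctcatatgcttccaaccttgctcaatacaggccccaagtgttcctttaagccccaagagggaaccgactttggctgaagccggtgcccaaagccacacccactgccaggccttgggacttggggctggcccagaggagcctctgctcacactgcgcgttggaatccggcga
Slc25a13: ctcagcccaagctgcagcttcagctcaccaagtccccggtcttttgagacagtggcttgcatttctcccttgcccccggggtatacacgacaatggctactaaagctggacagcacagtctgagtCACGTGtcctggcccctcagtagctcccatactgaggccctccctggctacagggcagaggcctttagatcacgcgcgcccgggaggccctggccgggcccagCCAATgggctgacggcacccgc
The Slc25a12 stretch held 0 matches to the 5 motifs reported here, searched on both strands, and its GC content was 49.6% against 62.8% for Slc25a13. Of these motifs, none of which overlaps another in the stretches shown, CACGTG was found in 6.05% of 27025 RefSeq promoter windows of this length and in 5 of the 31 reported members present in that table (Slc25a1, Slc25a13, Slc25a14, Slc25a33 and Slc25a36). The GC box GGGCGG was in 23 of those 31 members and in 32.9% of all windows. CCAAT was in 15 of them and in 34.5% of all windows, and the TATA box TATAAA in 0 of them and in 13.0% of all windows. Median GC content was 60% over the members and 52% over all windows. AAGGTCA, a site of the kind bound by oestrogen-related receptors, was found in Slc25a34 and in 4.05% of all windows. Slc25a26, Slc25a27, Slc25a32, Slc25a35, Slc25a37, Slc25a44, Slc25a46 and Slc25a51 were not analysed here for promoters.

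All 3 measured carriers of ATP-Mg and phosphate were called in double knockout libraries, in different directions. Of all genes 9.41% were called higher there and 7.9% lower. Slc25a23, Slc25a24 and Slc25a25 exchange ATP-Mg for phosphate under control of cytosolic calcium and so set the adenine nucleotide pool of the matrix, and Slc25a41, a relative that lacks the calcium-binding part, had at most 1 count. Normalised counts of Slc25a23 were 1021, 1097 and 1385 in WT and 1096, 1051 and 1028 in Cdk19-/-, but 695, 605 and 523 in Cdk8-/- and 687, 403 and 509.7 in double knockout libraries. It fell by 0.94 on the log2 scale in Cdk8-/- (SE 0.176, edgeR adjusted p = 0.0118) and by 1.13 in double knockout libraries (SE 0.177, edgeR adjusted p = 0.00186). The 2 groups labelled as lacking Cdk8 lay wholly below the other 2. Slc25a25 lay the other way, with 284, 311 and 315 in WT, 393, 322 and 292 in Cdk19-/-, 408, 429 and 480.0 in Cdk8-/- and 472, 439 and 431 in double knockout libraries. It rose by 0.53 in Cdk8-/- (SE 0.117, edgeR adjusted p = 0.0239) and by 0.56 in double knockout libraries (SE 0.117, edgeR adjusted p = 0.00757).

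Normalised counts of Slc25a24 were 2929, 2739 and 2791 in double knockout libraries, against 1545, 1722 and 1744 in WT, 1799.5, 1836 and 2629 in Cdk8-/- and 1270.1, 1087 and 1227 in Cdk19-/-. The double knockout libraries were the highest and the Cdk19-/- libraries the lowest, with no overlap with any other group. The rise against WT was 0.76 on the log2 scale (SE 0.131, edgeR adjusted p = 0.00300) and that against Cdk19-/- was 1.24 (SE 0.133, edgeR adjusted p = 0.000145). The per-kilobase ratio of Slc25a24 to Slc25a23 was 8.51 ± 1.96 (SD, n = 3) in double knockout libraries and 5.48 ± 2.00 in Cdk8-/-, against 2.23 ± 0.256 in WT and 1.74 ± 0.129 in Cdk19-/-. At 24 h of Senexin B Slc25a24 fell, from 2212, 2082 and 2142 in DMSO to 1521, 1551 and 1472 (-0.50, SE 0.071, edgeR adjusted p = 0.000268). Neither Slc25a23 nor Slc25a25 was called at either time of treatment.

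The promoters of Slc25a23 (chr17:57059864-57060113, minus strand) and Slc25a24 (chr3:109122899-109123148, plus strand) are given because these relatives were called in opposite directions in double knockout libraries. Capitals mark CCAAT at base 40 and a GC box read on the other strand at base 198 of Slc25a23, and 2 GC boxes in Slc25a24, whose GC content was 72.8% against 52.4% for Slc25a23.
Slc25a23: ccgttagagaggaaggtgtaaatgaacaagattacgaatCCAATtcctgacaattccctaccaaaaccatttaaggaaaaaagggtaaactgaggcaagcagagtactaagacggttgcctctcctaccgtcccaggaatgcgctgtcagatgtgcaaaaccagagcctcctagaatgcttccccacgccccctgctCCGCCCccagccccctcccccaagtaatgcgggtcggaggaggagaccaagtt
Slc25a24: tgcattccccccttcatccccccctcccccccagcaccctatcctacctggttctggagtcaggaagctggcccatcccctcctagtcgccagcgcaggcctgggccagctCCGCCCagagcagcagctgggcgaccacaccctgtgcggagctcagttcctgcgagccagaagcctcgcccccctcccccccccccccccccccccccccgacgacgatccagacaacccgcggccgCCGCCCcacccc

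**Figure D3:**
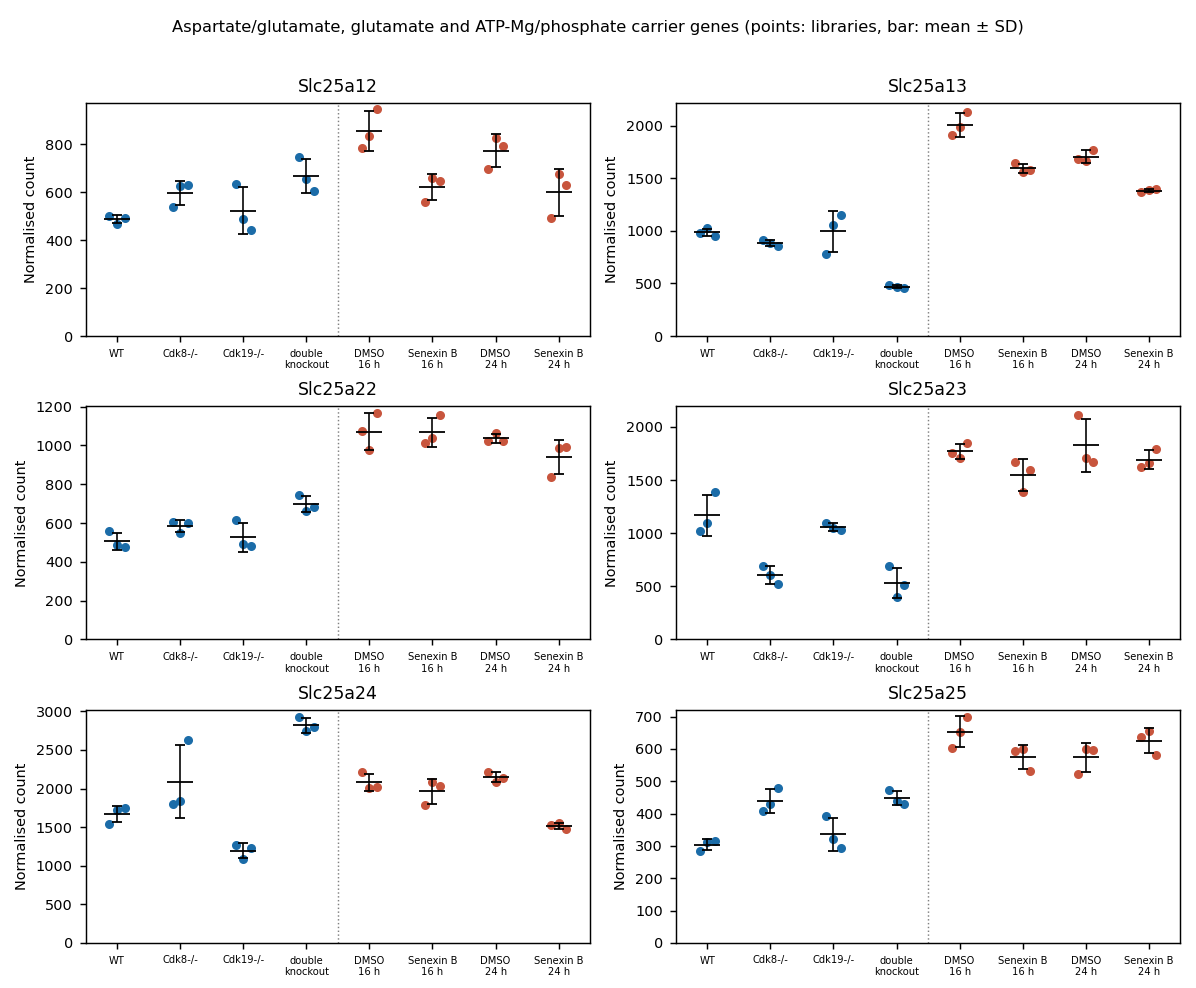
Normalised counts of each library (points) with the group mean and SD (n = 3) for the aspartate/glutamate and glutamate carriers Slc25a12, Slc25a13 and Slc25a22 and the ATP-Mg/phosphate carriers Slc25a23, Slc25a24 and Slc25a25 in the 8 groups, each experiment on its own scale. In double knockout libraries Slc25a13 sits at 461 to 485 against 953 to 1023 in WT, while Slc25a24 sits at 2739 to 2929 against 1545 to 1744.

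Among the 5 measured carriers of citrate, dicarboxylates and keto acids, the poorly characterised relatives Slc25a34 and Slc25a35 were called in double knockout libraries, both higher. Slc25a1, Slc25a10 and Slc25a11 were not called there, and 9.41% of all genes were called higher. Normalised counts of Slc25a35 were 306, 299 and 269 in WT and 337, 399 and 405 in Cdk19-/-, against 553, 543 and 664 in Cdk8-/- and 441, 649.7 and 571 in double knockout libraries. It rose by 1.01 on the log2 scale in Cdk8-/- (SE 0.143, edgeR adjusted p = 0.00264) and by 0.93 in double knockout libraries (SE 0.143, edgeR adjusted p = 0.00171). Its reads in these libraries may be shared with Rangrf, as given above. In the strand-specific Senexin B libraries Slc25a35 rose from 482, 503 and 505 to 678, 623 and 637 at 16 h (0.38, SE 0.098, edgeR adjusted p = 0.0283). At 24 h it rose from 528, 507 and 453 to 703, 544 and 672 (0.37, SE 0.097, edgeR adjusted p = 0.0132), so treated libraries lay above DMSO at both times.

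Normalised counts of Slc25a34 were 53.3, 75.0 and 59.5 in WT and 42.3, 37.9 and 40.5 in Cdk19-/-, against 215, 87.6 and 95.1 in double knockout libraries. Replicate 1 of the double knockout stood well above the other two. The rise against WT was 1.08 on the log2 scale (SE 0.305, edgeR adjusted p = 0.0306), and without that library it was 0.56 and was not called. At 24 h of Senexin B Slc25a34 fell, from 177, 172 and 128 to 109.8, 52.7 and 84.3 (-0.95, SE 0.241, edgeR adjusted p = 0.0104). At 16 h it stood at 142, 105 and 98.1 against 220.5, 161 and 147 in DMSO (-0.62, edgeR adjusted p = 0.126). Slc25a11, which exchanges oxoglutarate for malate in the malate-aspartate shuttle, fell at 16 h of Senexin B from 3903, 3411 and 3539 to 3181, 3092 and 3003 (-0.23, SE 0.063, edgeR adjusted p = 0.0417) and its exons overlap those of Rnf167 on the opposite strand.

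The largest difference of any member against WT was that of Slc25a48, a mitochondrial choline transporter. Its normalised counts were 9.05, 12.3 and 17.7 in WT, 22.2, 22.4 and 21.7 in Cdk19-/-, 74.5, 73.4 and 86.4 in Cdk8-/- and 55.1, 96.5 and 78.6 in double knockout libraries. All libraries labelled as lacking Cdk8 lay above all others. Slc25a48 rose by 2.57 on the log2 scale in Cdk8-/- (SE 0.280, edgeR adjusted p = 0.000481) and by 2.55 in double knockout libraries (SE 0.280, edgeR adjusted p = 0.000298), while its value in Cdk19-/- was 0.76 (SE 0.299, edgeR adjusted p = 0.362). At 24 h of Senexin B it rose from 78.5, 75.0 and 70.5 to 114, 148 and 119.8 (0.77, SE 0.153, edgeR adjusted p = 0.00241). At 16 h the groups overlapped, at 86.4, 105 and 111 in DMSO and 126, 100.5 and 108 with Senexin B (0.15, edgeR adjusted p = 0.622). The difference between the times was 0.62 (SE 0.214, edgeR adjusted p = 0.287). Its promoter (GRCm38.p6, chr13:56438105-56438354, plus strand) is shown for the member with the largest difference, with 2 GC boxes in capitals, one of them read on the other strand.
Slc25a48: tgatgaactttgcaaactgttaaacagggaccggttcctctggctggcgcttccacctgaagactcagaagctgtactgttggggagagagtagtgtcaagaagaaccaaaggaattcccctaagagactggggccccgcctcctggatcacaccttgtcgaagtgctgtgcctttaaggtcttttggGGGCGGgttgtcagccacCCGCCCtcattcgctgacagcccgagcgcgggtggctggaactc

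Slc25a45, a relative of Slc25a48 and Slc25a47, varied widely within groups. It had 504 and 429 normalised counts in double knockout replicates 1 and 2 but 77.7 in replicate 3, and 149 in Cdk19-/- replicate 1 but 56.4 and 78.9 in replicates 2 and 3, with 159, 187 and 169 in WT. The libraries that stood apart were the 2 in which Cdk19 was at the WT level. With all libraries the double knockout difference against WT was 0.97 (SE 0.508, edgeR adjusted p = 0.211). Without those 2 libraries Slc25a45 was called higher in double knockout (1.44, SE 0.189, edgeR adjusted p = 0.00134) and lower in Cdk19-/- libraries (-1.33, SE 0.219, edgeR adjusted p = 0.00853) against WT. Slc25a47 was not called in any comparison, with 34.2, 52.4 and 53.2 in WT and 48.9, 31.5 and 37.9 in double knockout libraries.

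**Figure D4:**
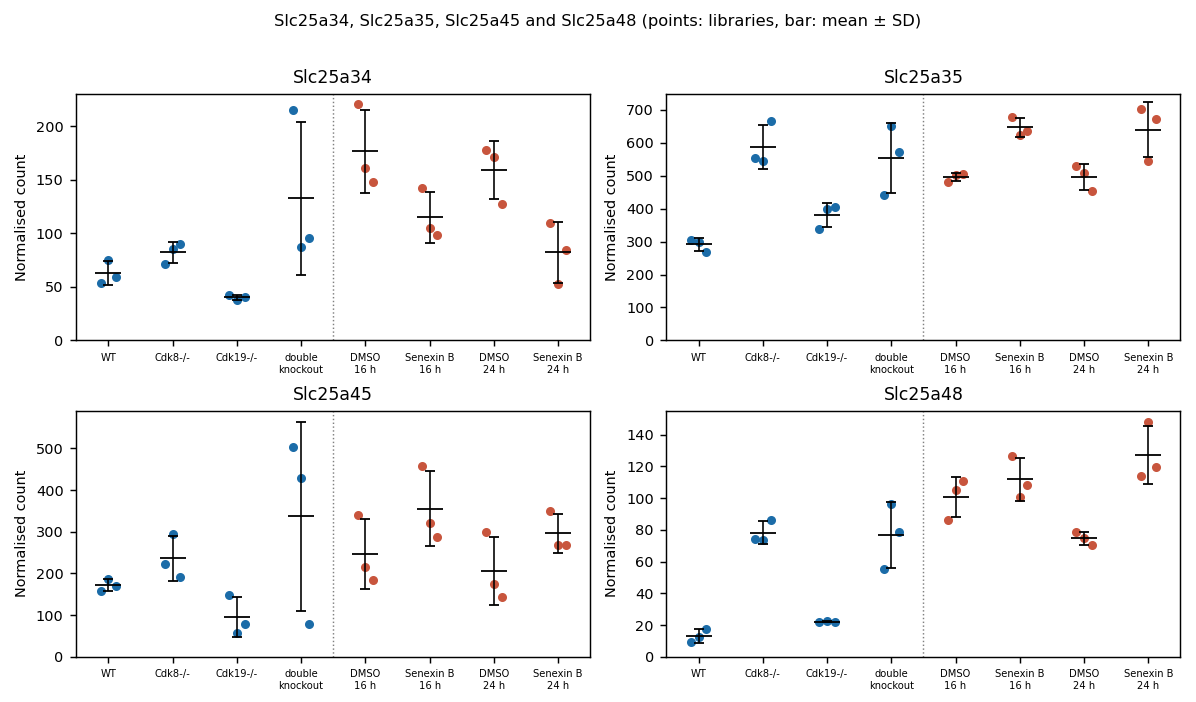
Normalised counts of each library (points) with the group mean and SD (n = 3) for Slc25a34, Slc25a35, Slc25a45 and Slc25a48 in the 8 groups, each experiment on its own scale. Slc25a48 sits at 9.05 to 22.4 in WT and Cdk19-/- and at 55.1 to 96.5 in Cdk8-/- and double knockout libraries, and 1 double knockout library each sets Slc25a34 (215) and Slc25a45 (77.7) apart.

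Of 9 measured carriers of cofactors and nucleotides, 3 fell in Cdk8-/- (Slc25a32, Slc25a36 and Slc25a42) and 2 of these also in double knockout libraries (Slc25a32 and Slc25a36), and 0 rose, where 2.36% and 7.9% of all genes were called lower. Normalised counts of Slc25a32, which brings folate and FAD into mitochondria, were 789, 807 and 835 in WT, 545, 669.9 and 567 in Cdk8-/- and 601, 667 and 603 in double knockout libraries. Its changes were -0.45 (SE 0.097, edgeR adjusted p = 0.0220) and -0.38 (SE 0.096, edgeR adjusted p = 0.0200). Slc25a36, a pyrimidine nucleotide carrier, had 3334, 3335 and 3122 in WT, 2342, 1871 and 2089.9 in Cdk8-/- and 1939.6, 2014 and 2844 in double knockout libraries. It fell by 0.64 in Cdk8-/- (SE 0.159, edgeR adjusted p = 0.0425) and by 0.53 in double knockout libraries (SE 0.159, edgeR adjusted p = 0.0401). Slc25a42, a coenzyme A carrier, stood at 689, 608 and 524 in WT, 405, 415 and 414 in Cdk8-/- and 533, 445 and 520.4 in double knockout libraries, with values of -0.56 (SE 0.111, edgeR adjusted p = 0.0153) and -0.28 (edgeR adjusted p = 0.101). Each of these 5 calls was lost without at least 3 of the 6 libraries of its comparison taken in turn, and that of Slc25a36 in Cdk8-/- without any of the 6. None of the 9 was called under Senexin B in the fit without a replicate block (the blocked calls are given below).

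Of the 4 measured carriers of other amino acids, 1 rose in double knockout libraries, where 9.41% of all genes were called higher. Normalised counts of Slc25a44, which imports branched-chain amino acids, were 1480.0, 1487 and 1483 in WT and 2176, 1809 and 1676 in double knockout libraries (0.35, SE 0.104, edgeR adjusted p = 0.0392). The ornithine carrier Slc25a15 fell at 16 h of Senexin B, from 5957, 5549 and 5486 to 4784, 4503 and 4384 (-0.31, SE 0.068, edgeR adjusted p = 0.0113). At 24 h its value was -0.15 (edgeR adjusted p = 0.122), and its paralog Slc25a2 was among the members under the count limit. Slc25a29 stood at 41, 40.6 and 39.6 with Senexin B against 28.1, 16.6 and 22.9 in DMSO at 24 h, a rise of 0.84 (SE 0.292, edgeR adjusted p = 0.0458).

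The carriers that exchange ATP for ADP and import phosphate, among the most abundant members, were not called in any comparison with WT or, without a replicate block, with Senexin B. In Cdk8-/- the levels of Slc25a4 were 1210.4, 1322 and 1096, all above WT (0.52, SE 0.194, edgeR adjusted p = 0.146). It was called there with no filter on low counts (edgeR adjusted p = 0.0388), with only the 2 groups compared (edgeR adjusted p = 0.0391) and without the 2 libraries with Cdk19 at the WT level (edgeR adjusted p = 0.0285). Slc25a5 stood at 20216, 20938 and 22031 at 16 h of Senexin B, all below the 23882, 23706 and 26278 in DMSO (-0.23, SE 0.070, edgeR adjusted p = 0.0660), and was called there by DESeq2 (adjusted p = 0.0366) and by edgeR without DMSO replicate 1 (adjusted p = 0.0476). Normalised counts of Slc25a4 were 859, 942 and 731 in WT and 816, 1029.7 and 515 in double knockout libraries (-0.10, SE 0.195, edgeR adjusted p = 0.761). Slc25a5 had 2810.3, 3070.1 and 2909.6 in WT and 4272, 3734 and 2545 in double knockout libraries (0.26, SE 0.193, edgeR adjusted p = 0.375). The phosphate carrier Slc25a3 differed by 0.05 (SE 0.094, edgeR adjusted p = 0.744). The glutathione carriers Slc25a39 (-0.14, edgeR adjusted p = 0.373) and Slc25a40 (-0.07, edgeR adjusted p = 0.852) were likewise not called. Of the mitochondrial iron importers, Slc25a28 rose at 24 h of Senexin B, from 1527, 1706 and 1516 to 1957, 1800.1 and 1902 (0.25, SE 0.070, edgeR adjusted p = 0.0162). Its value in double knockout libraries against WT was -0.28 (edgeR adjusted p = 0.102), and Slc25a37 was not called in any comparison.

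Double knockout libraries were also set against those labelled Cdk19-/-, where 14 members were called (8 higher and 6 lower), beside 25.3% of all genes (14.4% higher and 11.0% lower). Of these 14, Slc25a30 and Slc25a45 were called in that comparison alone. Slc25a30, an uncoupling-protein-like carrier, had 126, 137 and 139.8 normalised counts against 148, 209 and 191 (-0.44, SE 0.139, edgeR adjusted p = 0.0345). Slc25a28 fell by 0.48 (SE 0.109, edgeR adjusted p = 0.00740). Slc25a45 was called higher there too (1.83, SE 0.529, edgeR adjusted p = 0.0246), although its groups overlapped. Without the 2 libraries in which Cdk19 was at the WT level 19 members were called (12 higher and 7 lower), beside 28.5% of all genes. Slc25a35 was then lost, Slc25a1, Slc25a5, Slc25a11, Slc25a12 and Slc25a20 were called higher, and Slc25a36 was called lower. The departure of the double knockout from the sum of the single-knockout differences called 0 members with edgeR and 0.0256% of all genes, with 9 members and 14.5% of all genes at an unadjusted p under 0.05, and DESeq2 called 2 members and 3.17% of all genes. The members with the largest departures were Slc25a45 (1.37, SE 0.730, edgeR adjusted p = 0.416), Slc25a34 (1.32, SE 0.439, edgeR adjusted p = 0.208) and Slc25a13 (-0.93, SE 0.168, edgeR adjusted p = 0.0598). Leaving out 1 library at a time moved the first from 0.96 to 1.85 and the second from 0.78 (without double knockout replicate 1) to 1.54, so their order rests on single libraries. Slc25a24 departed by 0.92 (SE 0.185, edgeR adjusted p = 0.0709).

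Without the 2 libraries in which Cdk19 was at the WT level, edgeR called a departure from additivity for 4 members, beside 4.6% of all genes. These were Slc25a13 (-1.06, edgeR adjusted p = 0.00247), Slc25a24 (0.97, edgeR adjusted p = 0.0338), Slc25a44 (0.60, edgeR adjusted p = 0.0338) and Slc25a45 (2.32, edgeR adjusted p = 0.00397). In Cdk19-/- against WT 2 members were then called, Slc25a45 lower and Slc25a28 higher (0.35, edgeR adjusted p = 0.0362), beside 4.21% of all genes, and in double knockout against WT 16, beside 19.0%, with Slc25a11 and Slc25a45 added as higher and Slc25a27 and Slc25a28 as lower. Between double knockout and Cdk8-/- libraries Slc25a13 was then still the 1 member called, beside 0.139% of all genes. Dropping the 2 libraries was chosen after the data had been seen.

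The largest differences in Cdk19-/- against WT, none called, were those of Slc25a45 (-0.86, edgeR adjusted p = 0.625), Slc25a48 (0.76) and Slc25a34 (-0.64, edgeR adjusted p = 0.514). Between double knockout and Cdk8-/- libraries, Slc25a34 (0.68, edgeR adjusted p = 0.299) and Slc25a4 (-0.62, edgeR adjusted p = 0.186) followed Slc25a13 in size. These values rest on single libraries, since Slc25a34 had 0.16 without double knockout replicate 1 and Slc25a4 had -0.38 without double knockout replicate 3. Likewise the value of Slc25a45 in Cdk19-/- ran from -1.33 (without Cdk19-/- replicate 1) to -0.59. The Senexin B differences at 24 h and 16 h did not differ for any member by edgeR (0 members and 0.0% of all genes called, 4 members and 12.9% of all genes at an unadjusted p under 0.05), and DESeq2 called 1 member, Slc25a24, and 0.407% of all genes. The largest values there were those of Slc25a48 (0.62), Slc25a29 (0.62, edgeR adjusted p = 0.549) and Slc25a27 (-0.44, edgeR adjusted p = 0.415), of which the last 2 ran from 0.36 to 0.93 and from -0.62 to -0.29 over the left-out libraries.

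Some carriers differed between the 2 times in vehicle alone, beside 2 of 5 enteroendocrine markers called higher (sums of 7831 to 8635 at 24 h against 5529 to 6182 at 16 h, with no overlap), whose part was not tested. From 16 h to 24 h of DMSO 9 members were called (2 higher and 7 lower), beside 11.1% of all genes (4.52% higher and 6.59% lower), and 29 of 40 members had a value below 0, with a median of -0.10 against 0.00 for all genes. Slc25a1 fell from 10625, 8707 and 10893 normalised counts to 7273, 7255 and 7358 (-0.47, SE 0.088, edgeR adjusted p = 0.00664). Slc25a33, a pyrimidine nucleotide carrier, fell from 254, 284 and 321 to 161, 215 and 196 (-0.58, SE 0.123, edgeR adjusted p = 0.0112), whereas its paralog Slc25a36 rose from 3617, 3004 and 2760.3 to 5301, 4451 and 4673 (0.62, SE 0.094, edgeR adjusted p = 0.00250). Slc25a5 fell by 0.29 (SE 0.070, edgeR adjusted p = 0.0202), Slc25a15 by 0.33 (SE 0.068, edgeR adjusted p = 0.0105), Slc25a10 by 0.28 (SE 0.075, edgeR adjusted p = 0.0306), Slc25a13 by 0.24 (edgeR adjusted p = 0.0266) and Slc25a44 by 0.21 (edgeR adjusted p = 0.0373). Slc25a27, an uncoupling-protein-like carrier, rose by 0.62 (SE 0.155, edgeR adjusted p = 0.0219).

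Knockout and inhibitor values were then set side by side for the 16 members called in double knockout against WT or with Senexin B. These comparisons share no libraries. Of the 12 members called in double knockout and the 8 called at 24 h of Senexin B, 6 were in both, which is 50% of the first and 75% of the second. Slc25a13 was lower and Slc25a35 and Slc25a48 were higher in both. Slc25a12, Slc25a24 and Slc25a34 were higher in double knockout libraries and lower with Senexin B at 24 h. Over all genes, 941 were called in both, 34.9% and 22.1% of the 2 lists, and 65.1% of these ran in opposite directions. At 16 h 3 members were shared, Slc25a13 and Slc25a35 in the same direction and Slc25a12 in the opposite one. The overlap over all genes was not computed at 16 h. Slc25a12, Slc25a13 and Slc25a35 were called at both times of Senexin B, each in the same direction, with separate DMSO libraries at each time. These overlaps come from the fit without a replicate block. With the block 7 members were called at both times in the same direction, Slc25a15, Slc25a28, Slc25a34 and Slc25a45 being added. Slc25a34 (edgeR adjusted p = 0.0160) became the fourth member shared by double knockout and 16 h, in opposite directions. The blocked fits called 14.8% of all genes at 16 h and 36.9% at 24 h. Overlaps over all genes were not computed between the 2 Senexin B times or with the block, so these counts are not results about the members.

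**Figure D5:**
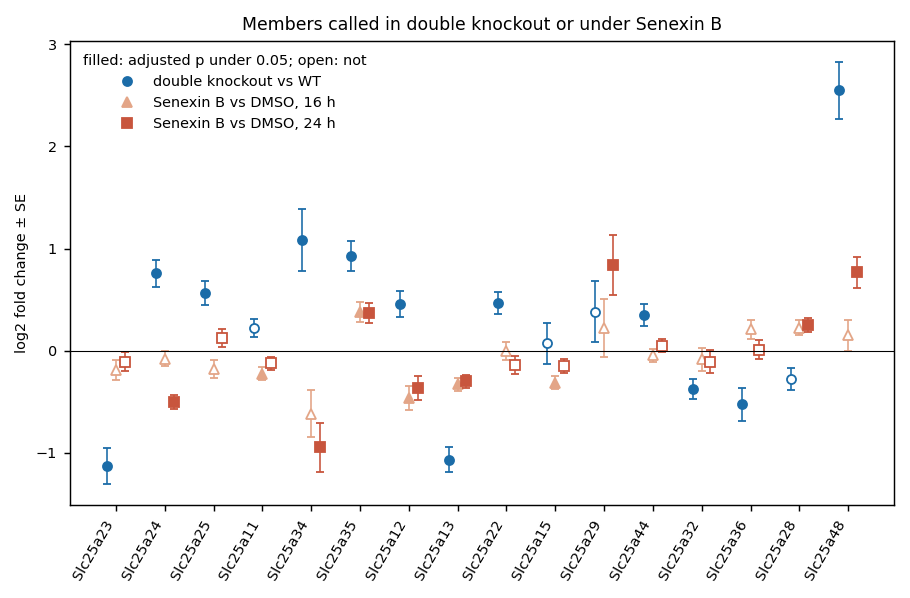
Log2 fold changes with their SE for the 16 Slc25a genes called in double knockout against WT or with Senexin B at 16 h or 24 h against DMSO, with filled points where edgeR's adjusted p was under 0.05. Slc25a48 (2.55 and 0.77) and Slc25a35 (0.93 and 0.37) lie above 0 in double knockout and at 24 h of Senexin B. Slc25a24 (0.76 and -0.50) and Slc25a34 (1.08 and -0.95) lie on opposite sides of 0.

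Leaving out 1 library at a time moved the counts of called members and the share of all genes called. That share ran from 1.23% to 4.39% in Cdk8-/- and from 8.47% to 15.4% in double knockout against WT, and from 15.1% to 27.1% in double knockout against Cdk19-/-. It ran from 4.18% to 11.6% at 16 h and from 16.9% to 24.2% at 24 h of Senexin B, and from 2.75% to 14.6% between the DMSO times. Against WT the 7 calls in Cdk8-/- became 3 without WT replicate 1 or 2, and 4 without WT replicate 3 or Cdk8-/- replicate 1 or 3. Slc25a23, Slc25a35 and Slc25a48 were called whichever library was left out. The 12 in double knockout became 6 without WT replicate 2 and 7 without WT replicate 1, WT replicate 3 or double knockout replicate 1, and Slc25a13, Slc25a23, Slc25a24, Slc25a25, Slc25a35 and Slc25a48 were called each time. Against Cdk19-/- the 14 became 8 without Cdk19-/- replicate 2 or 3 and 9 without double knockout replicate 1. The counts of 0 in Cdk19-/- against WT and for the departure from additivity became 1 without Cdk19-/- replicate 1, and 2 without Cdk8-/- replicate 3 or Cdk19-/- replicate 1, respectively. Of all genes, 3.27% were called in Cdk19-/- without its replicate 1, and 2.47% and 2.93% for the departure from additivity. The 5 at 16 h of Senexin B became 11 without DMSO replicate 1, 3 without DMSO replicate 2, 2 without DMSO replicate 3 or Senexin B replicate 1, and 1, Slc25a13, without Senexin B replicate 2 or 3. The 8 at 24 h became 4 without DMSO replicate 3 or Senexin B replicate 1 or 3, and Slc25a13, Slc25a24, Slc25a34 and Slc25a48 were called each time. The 9 between the DMSO times became 3 without the 16 h replicate 3 or the 24 h replicate 1 and 5 without the 24 h replicate 2, with Slc25a1, Slc25a15 and Slc25a36 called each time.

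With the replicate number as a block, 13 members were called at 16 h of Senexin B (4 higher and 9 lower) and 14 at 24 h (8 higher and 6 lower), the unblocked calls included. The block raised the share of all genes called from 7.75% to 14.8% at 16 h and from 27.5% to 36.9% at 24 h. At 16 h this added Slc25a4, Slc25a5, Slc25a16, Slc25a17 and Slc25a34, all lower, and Slc25a27, Slc25a28 and Slc25a45, all higher. At 24 h it added Slc25a15 and Slc25a51, the mitochondrial NAD carrier, both lower, and Slc25a26, Slc25a33, Slc25a39 and Slc25a45, all higher.

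Genes that act with the carriers were taken from lists chosen alongside the members. Of 10 genes for the import of carriers into the inner membrane, 0 rose and 2 fell in double knockout libraries, the outer membrane receptor Tomm20 (-0.51) and Timm29 (-0.27), where 7.9% of all genes were called lower. Tomm20 also fell in Cdk8-/- (-0.34) and Timm29 at 16 h of Senexin B (-0.23). At 24 h of Senexin B 5 of the 10 rose and 0 fell, where 14.8% of all genes were called higher and 12.7% lower. Those 5 were the small intermembrane-space chaperones Timm9 (0.42) and Timm10 (0.64), the carrier translocase Timm22 (0.25), the channel Tomm40 (0.45) and the receptor Tomm22 (0.23). In vehicle alone 3 of these 5 fell from 16 h to 24 h, Tomm40 by 0.46, Tomm22 by 0.34 and Timm22 by 0.27, where 6.59% of all genes were called lower. Of 4 malate-aspartate shuttle enzymes, Mdh1 rose in double knockout libraries (0.47), Got1 rose at 24 h of Senexin B (0.48), and 3 fell from 16 h to 24 h of DMSO (Got1 -0.58, Mdh2 -0.39 and Mdh1 -0.21). Of 12 other inner membrane transporters 1 rose and 1 fell in double knockout libraries (Letm1 0.65 and Sfxn2 -0.88), 0 rose and 2 fell at 16 h of Senexin B (Abcb10 -0.36 and Sfxn1 -0.20), and 1 rose and 1 fell at 24 h (Letm1 0.54 and Abcb10 -0.22). Between the DMSO times 1 rose (Sfxn3 0.46) and 3 fell (Letm1 -0.44, Mpc2 -0.31 and Abcb10 -0.22). The 3 outer membrane porins gave 1 fall in double knockout libraries (Vdac3), 1 rise at 24 h of Senexin B and 3 falls between the DMSO times. Of 11 tested mitochondrially encoded mRNAs 4 rose and 0 fell at 24 h of Senexin B, against 14.8% of all genes called higher. The largest of these rises, that of mt-Nd6 (1.32), stood beside a fall of the same gene between the DMSO times (-0.56). All of these changes passed edgeR's adjusted p of 0.05.

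The other 16 members were called in none of the 10 comparisons with all libraries and without a replicate block, where their log2 fold changes ran from -0.71 to 0.54. Other settings called 9 of these 16 at least once. The blocked Senexin B fits called 6, namely Slc25a4, Slc25a16 and Slc25a17 at 16 h and Slc25a26, Slc25a39 and Slc25a51 at 24 h. Without a block 7 of the 9 were called at least once, Slc25a4 as given above. DESeq2 called Slc25a38 in double knockout against WT (adjusted p = 0.0408) and Slc25a39 at 24 h of Senexin B (adjusted p = 0.0470). At 16 h of Senexin B edgeR without DMSO replicate 1 called Slc25a16 (adjusted p = 0.0142) and Slc25a17 (adjusted p = 0.0491). In double knockout against Cdk19-/-, edgeR called the carnitine/acylcarnitine carrier Slc25a20 without Cdk19-/- replicate 1 (adjusted p = 0.0182) and the iron importer Slc25a37 without double knockout replicate 2 (adjusted p = 0.0318). The phosphate carrier Slc25a3 and the glutathione carrier Slc25a40 were among the 7 that no setting run here called.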

How the data were processed

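RNA-seq was analysed in 24 organoid libraries in 2 experiments of 4 groups with 3 libraries each. Per the study's methods the reads were 50 bp, single-end, and were aligned to GRCm38.p6 with Ensembl release 93 by STAR, version 2.6.0a in the methods and 2.6.0c in the submitters' processing notes, with FastQC for quality. The deposited files are raw STAR gene counts made by the authors, with 4 rows per table that name no gene, which were left out of all totals (23.5% and 64.5% of reads, as medians of the Senexin B and genotype libraries, were not on a gene in column 4). The fourth column, counted on one strand, was used throughout. In the Senexin B libraries it held 87.9% to 90.5% of the strand-assignable reads, and in the genotype libraries 49.6% to 49.7%, so the latter carry no strand information. Counting error and multimapping reads, 19.5% to 22.9% of genotype and 7.25% to 8.17% of Senexin B reads, which STAR does not count, limit precision for low members and close paralogs.

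Each experiment was normalised by TMM, filtered by expression and fitted over all genes and its 4 groups with edgeR 4.0.16 (quasi-likelihood test, Benjamini-Hochberg adjustment, threshold 0.05) in R 4.3.3. DESeq2 1.42.0, other filters, the other count column, only the groups compared, left-out libraries and a replicate block were alternatives. Tables and plots were made with Python 3.11.15, pandas 2.3.3, numpy 2.4.6 and matplotlib 3.10.9. Code was tested on simulated data. Coordinates and exon lengths were taken from the GENCODE annotation of the same build (54079 of 54146 genes matched), and promoters from RefSeq.

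Members and lists were chosen with earlier results of these data known. Values were given for every called member, for the 3 members with the largest changes in comparisons with fewer than 3 calls, for the 5 highest per kilobase and for close paralogs. Same-numbered libraries deviated together at 16 h (correlations of 0.303, 0.101 and 0.110) and 24 h (0.377, 0.137 and 0.187) of Senexin B, all over 0.1, which is a pairing read from the data and not from the labels. The highest correlations of differently numbered libraries were 0.154 and 0.147. Replicates 2 and 3 at 16 h and replicate 2 at 24 h lay below these, so the evidence is weak, more so at 16 h. The block ran over the whole experiment, so it also joined same-numbered 16 h and 24 h libraries. Between the DMSO times the same-numbered correlations were 0.366, -0.0503 and 0.284, not all over 0.1, and in no genotype comparison were all over 0.1. Values of 1 member are not reported here.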

Additional observations from a re-analysis of the deposited data

Results flagged for a closer look

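The same contrast of kinase loss against control went in opposite directions in the knockout and the inhibitor experiment for 3 members, with all libraries of the groups apart in each comparison. These were 3 of the 6 members called in both double knockout and at 24 h of Senexin B, beside 65.1% of the 941 such genes over all genes, so opposite directions were not more frequent among the members. Slc25a12 had a log2 fold change of 0.46 in double knockout against WT and of -0.46 at 16 h and -0.37 at 24 h of Senexin B against DMSO. Slc25a24 had 0.76 in double knockout and -0.50 at 24 h of Senexin B. Slc25a34 had 1.08 in double knockout, of which 1 library set the size, and -0.95 at 24 h of Senexin B. The difference between the experiments was not tested, since the libraries were made differently and share no control.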

How the results depend on the processing

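No recomputed value changed sign. Of the alternatives' values for named members, 777 kept their side of the threshold, 154 lost it and 8 gained it. Of the alternatives' counts of called members, 98 stayed within 1.5 times the count, 33 were lower and 15 higher. In Cdk19-/- against WT the count of 0 members became 1 with no filter on low counts and 2 without the 2 libraries with Cdk19 at the WT level (1.61% and 4.21% of all genes). Double knockout against Cdk8-/- (1 member) gave 2 with no filter (1.2% of all genes), and 0 with at least 10 counts in every library, with a replicate block or with only the 2 groups compared (0.00747%, 0.00641% and 0.0%). Double knockout against Cdk19-/- (14) gave 8 with only the 2 groups compared (19.2% of all genes). The departure from additivity (0) gave 2 with DESeq2 (3.17% of all genes), 2 with no filter (1.9%) and 4 without those 2 libraries (4.6%). Senexin B at 16 h (5) gave 8 with DESeq2 (9.7% of all genes) and the difference between its times (0) gave 1 (0.407%). DMSO 24 h against 16 h (9) gave 2 with only the 2 groups compared (2.57% of all genes). The cause was not tested.

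The replicate block gave 13 members at 16 h and 14 at 24 h of Senexin B, beside 14.8% and 36.9% of all genes, and it took the call from Slc25a13 in double knockout against Cdk8-/- (adjusted p = 0.0813) and from Slc25a34 in double knockout against WT (adjusted p = 0.0543), where the numbers do not pair the libraries. It gave 11 members between the DMSO times (21.2% of all genes), 7 in Cdk8-/- (4.54%) and 11 in double knockout against WT (16.8%).

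Leaving out each replicate in turn gave 3 to 6 members in Cdk8-/- against WT, 0 to 1 in Cdk19-/-, 6 to 13 in double knockout, 0 to 2 against Cdk8-/-, 8 to 17 against Cdk19-/- and 0 to 2 for the departure from additivity. It gave 1 to 11 at 16 h and 4 to 8 at 24 h of Senexin B, 3 to 11 between the DMSO times and 0 to 0 for the difference between the Senexin B times. Between edgeR's and DESeq2's scaling the median of all genes moved by at most 0.0138 (log2). Low members such as Slc25a29 and Slc25a48 have few counts behind their values.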
